A study of Mus musculus with 11 samples.

Results

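CpG-sparse tiles at high methylation are fixed stretches of 1000 bp of the mouse autosomes that hold few measured CpG positions, nearly all of them methylated. A tile belonged to this set when it held 3 to 19 C positions, the strands of a CpG counted apart, each covered by 10 or more reads in all 10 libraries with an assigned genotype, and when its mean level over the 5 control libraries was 80% or more. The level of a tile is the percent of methylated C among the reads at its positions, a read counting once at each position it spans. Of 100150 tiles with at least 3 such positions, 83452 were autosomal with 3 to 19 positions, and 55846 were members, which is 66.9% of the sparse tiles and 55.8% of all tiles. Members held 288428 C positions, 22.3% of the 1293035 positions common to the 10 libraries, with a median of 4 per tile (quartiles 3 and 6). Their control mean had a median of 94.6% (quartiles 91.7% and 96.1%), and 45996 members (82.4%) were at 90% or more. These control levels chose the members, so they are a description.

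The series profiled blood progenitors from bone marrow of C57BL/6 mice aged 12 months by enhanced reduced representation bisulfite sequencing, which reads CpG methylation near sites of the enzyme MspI. All animals carried the floxed Dnmt3af/f allele and received 5 injections of poly(I:C). Knockout animals also carried the Mx1-Cre transgene (Dnmt3af/f Mx1-Cre+), and controls lacked it (Dnmt3af/f Mx1-Cre-). Mx1-Cre is switched on by interferon, so poly(I:C) deletes the floxed segment in blood-forming cells and in some other interferon-responsive cells. LSK cells (Lin- Sca1+ cKit+), the fraction that holds blood stem cells, gave 3 control libraries (1326, 1330, 1331) and 3 knockout libraries (1327, 1333, 1334). GMP cells (Lin- Sca1- cKit+ CD34+ FcgR+), the granulocyte-macrophage progenitors, gave 2 control libraries (346, 349) and 2 knockout libraries (178, 179). The labels do not say whether each library came from a separate animal, so the p-values reflect how these libraries vary, which may be technical variation. An 11th library, GMP 352, had conflicting genotype labels and entered no comparison.

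Dnmt3a places methyl groups on cytosines that carry none, and Dnmt1 copies existing marks onto new DNA strands after replication. In mammals most CpG-poor DNA, such as gene bodies, introns and the space between genes, is methylated in nearly every cell, while CpG islands at promoters are kept free of methylation. Enhancers within the CpG-poor part are often less methylated in cell types that use them.

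Members rarely reached a promoter. Only 1082 of them (1.94%) overlapped a promoter window of the RefSeq table (GRCm38.p6, 250 bases before to 50 after a start), against 14.1% of all autosomal tiles. The 1146 windows they overlapped held a median of 6 CpGs (quartiles 4 and 9) and 52.3% G and C, where the 15010 windows that overlapped any autosomal tile held 21 CpGs (12 and 29) and 62% G and C. The MspI site CCGG, which reads the same on both strands, lay in 61.1% of member windows, 86.1% of windows overlapping any tile and 52.8% of the 32851 windows of the table. Chromosome 18 has no windows in this table. The 1790 members there, like the other tiles of that chromosome, therefore count as overlapping none. All 196133 measured positions inside promoter windows fell on a CG of the RefSeq sequence, so the listed coordinates match the sequences below. The positions were listed on the same genome build. The match therefore says nothing of differences between the DNA of these animals and the reference.

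The sequences below are promoter windows overlapped by members, 5′ to 3′ on the gene's strand, with the CpGs measured on at least 1 strand in capitals. The windows of LOC108167929 and Dgka are shown because they lay in the member tiles that overlapped a promoter window and had the largest losses with measured CpGs in the window. LOC108167929, a long non-coding RNA gene that starts beside the muscle sodium channel gene Scn4a, had 9 of 11 CpGs measured (chr11:106365314-106365613, plus strand). Dgka, which encodes a diacylglycerol kinase, had 3 of 13 measured (chr10:128737563-128737862, minus strand). Both windows hold more CpGs than the upper quartile of member windows.

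LOC108167929: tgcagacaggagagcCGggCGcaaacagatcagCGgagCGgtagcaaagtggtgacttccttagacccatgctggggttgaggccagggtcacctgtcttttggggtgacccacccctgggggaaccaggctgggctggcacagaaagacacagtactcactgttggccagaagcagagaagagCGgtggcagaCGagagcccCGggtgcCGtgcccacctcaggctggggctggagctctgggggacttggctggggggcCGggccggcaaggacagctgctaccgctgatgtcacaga
Dgka: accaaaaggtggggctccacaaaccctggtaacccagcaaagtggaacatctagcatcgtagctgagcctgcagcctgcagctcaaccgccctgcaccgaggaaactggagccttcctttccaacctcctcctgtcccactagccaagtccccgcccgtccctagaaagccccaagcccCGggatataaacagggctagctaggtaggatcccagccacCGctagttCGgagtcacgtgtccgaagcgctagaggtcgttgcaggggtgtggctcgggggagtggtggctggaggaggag

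The LOC108167929 window held every measured position of its tile (chr11:106365001-106366000, 10 positions, overlapping the end of Scn4a). Its level was 85.3%, 84.1% and 81.9% in control LSK libraries 1326, 1330 and 1331 and 54.9%, 49.8% and 65.7% in knockout LSK libraries 1327, 1333 and 1334. In GMP it was 75.2% and 81.9% in the controls and 56.8% and 66.1% in the knockouts. Knockout libraries lay below controls in both cell types without overlap, and the LSK difference was -26.9 points (adjusted p = 0.00109). The GMP difference was -17.2 points and missed the threshold (adjusted p = 0.401). All 10 positions were lower in knockout LSK, with differences from -43.7 points, at position -235 from the start, to -9.80 at position -65. In Dgka the 3 measured CpGs, between -71 and -23, differed by -37.5 to -21.8 points in LSK, and the tile level went from 80.3% ± 1.52 (SD, n = 3) to 54.7% ± 11.5 (n = 3). Without knockout 1333 the Dgka tile differed by -19.5 points, short of the 20 points used here.

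For contrast, the 3 windows with most measured positions among those whose positions all lay in members follow. They belong to Gm52707 (chr4:127233513-127233812, minus strand, 13 of 20 CpGs measured), Lep, which encodes the fat hormone leptin (chr6:29059971-29060270, plus strand, 13 of 19), and Tex101, a germ cell surface gene (chr7:24672001-24672300, minus strand, 14 of 19).

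Gm52707: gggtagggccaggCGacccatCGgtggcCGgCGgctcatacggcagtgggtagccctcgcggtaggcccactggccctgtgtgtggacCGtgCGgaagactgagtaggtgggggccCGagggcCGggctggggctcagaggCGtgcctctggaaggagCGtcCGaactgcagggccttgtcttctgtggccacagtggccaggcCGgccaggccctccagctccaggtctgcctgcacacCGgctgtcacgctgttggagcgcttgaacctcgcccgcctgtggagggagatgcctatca
Lep: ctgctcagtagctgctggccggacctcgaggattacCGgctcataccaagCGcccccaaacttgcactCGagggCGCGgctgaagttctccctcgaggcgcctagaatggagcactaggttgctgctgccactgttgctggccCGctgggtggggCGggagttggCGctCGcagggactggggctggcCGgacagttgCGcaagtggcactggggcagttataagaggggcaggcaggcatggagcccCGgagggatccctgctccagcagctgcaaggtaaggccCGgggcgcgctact
Tex101: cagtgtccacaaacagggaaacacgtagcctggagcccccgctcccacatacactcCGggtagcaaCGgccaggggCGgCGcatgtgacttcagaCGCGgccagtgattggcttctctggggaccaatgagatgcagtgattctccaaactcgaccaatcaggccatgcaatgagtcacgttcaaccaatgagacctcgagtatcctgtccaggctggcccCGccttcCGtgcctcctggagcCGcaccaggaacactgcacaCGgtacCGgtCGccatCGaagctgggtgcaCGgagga

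The Tex101 window was at 92.8% ± 0.231 (SD, n = 3) in control and 92.8% ± 1.51 (n = 3) in knockout LSK, a difference of -0.0580 points. Lep was at 85.7% ± 3.73 and 86.8% ± 2.76, and Gm52707 at 87.9% ± 0.942 and 87.5% ± 3.92, so in all 3 windows the groups overlapped. These promoters are denser in CpG than the usual member window and still stayed high in the knockout libraries. Over the 214 windows with at least 4 measured positions, all in members, the median LSK difference was -0.814 points, with 34 windows lower by 5 points or more and 1 higher by as much. Their median control LSK level was 93.7%, which left little room for rises.

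Depth and labels bear on these values as follows. Coverage summed over C positions, in which a read counts once at each position it spans, was 157.4 to 181.1 M (M, 1e6) in LSK libraries and 95.4 to 109.7 M in GMP libraries, and the median summed coverage per member tile was 360 to 448 in LSK and 261 to 311 in GMP. Reads carry no molecular identifiers, so read counts give the counting error only. In Dnmt3a (chr12:3801559-3914443), 5 positions between 3903653 and 3904031 were listed in every control library and in none of the 3 knockout LSK libraries, while knockout GMP 178 listed 4 of them at a mean coverage of 26 and 179 all 5 at 43. Reads from the segment thus remained in both knockout GMP libraries. Library 1333 stood apart by listing 120037 positions that none of the other 9 assigned libraries listed, against 6464 to 30246 in the others. The part of these differences in the results was not tested, and values without single libraries are given where they matter.

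Member tiles were slightly less methylated in every knockout library than in every control library. The mean level over members was 93.5%, 93.4% and 93.3% in control LSK libraries 1326, 1330 and 1331 and 92.7%, 91.8% and 91.8% in knockouts 1327, 1333 and 1334. In GMP it was 93.2% and 93.3% in controls 346 and 349 and 92.1% in each of knockouts 178 and 179. The groups did not overlap in either cell type, and knockout 1327 lay closest to the controls. The difference of the group means was -1.29 points in LSK (93.4% ± 0.0611 to 92.1% ± 0.503, SD, n = 3 each) and -1.17 points in GMP (93.2% ± 0.0982 to 92.1% ± 0.0132, n = 2 each). Knockout GMP differed from knockout LSK by -0.0338 points, less than the spread between the LSK knockouts, and control GMP from control LSK by -0.157 points. The control libraries chose the members, which favours higher levels in the controls. In members chosen by the mean of all 10 libraries, knockout minus control was -1.04 points in LSK and -0.969 in GMP. Tiles picked by the GMP controls alone differed by -1.28 points in LSK, and those picked by the LSK controls alone by -1.09 in GMP.

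The mean hides a tail of tiles that were low in the knockouts. Members below 80% in a single library made up 1.53%, 1.47% and 2.08% of all members in the LSK controls, and 3.84%, 8.25% and 5.60% in knockouts 1327, 1333 and 1334. In GMP the shares were 3.03% and 2.53% in the controls and 5.63% and 4.76% in the knockouts. Tiles below 50% numbered 22, 141 and 58 in the LSK knockouts and 24 and 16 in the GMP knockouts, against 0 in each of 4 controls and 2 in control 346. Since the rule held the controls at a mean of 80% or more, their low counts follow in part from it.

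**Figure D1:**
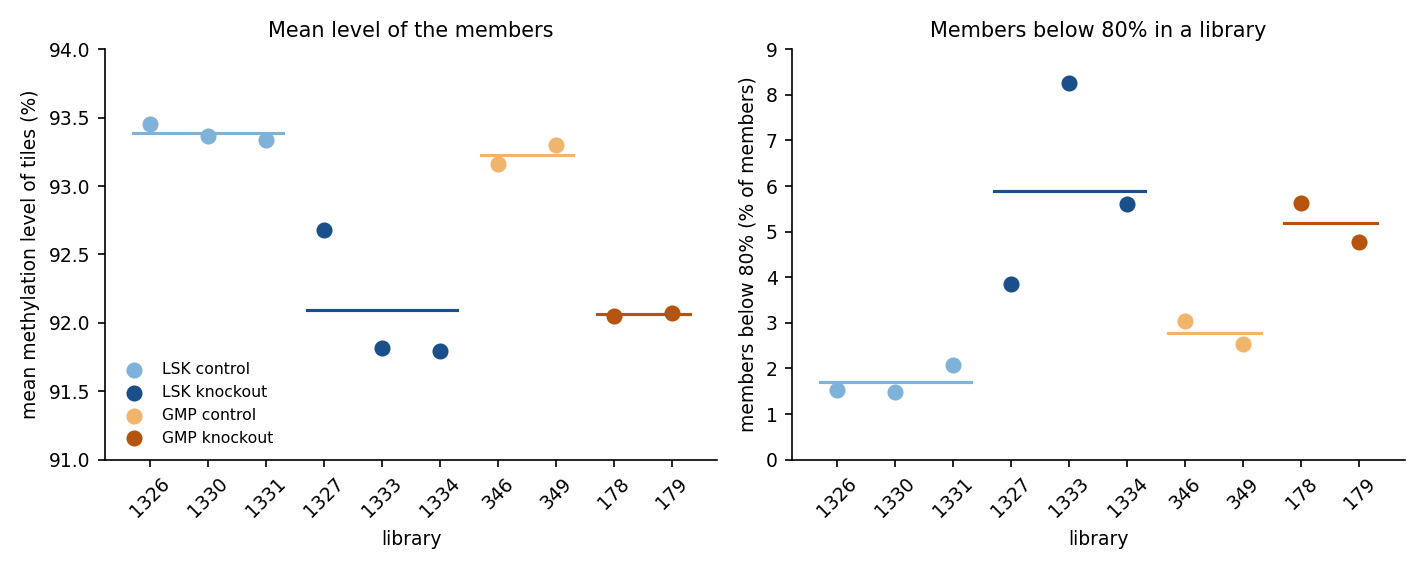
Mean methylation level of the 55846 member tiles (left, percent, axis from 91 to 94) and the percent of members below 80% (right) in each library, with a line at each group mean. Knockout libraries lie below controls on the left (91.8% to 92.7% against 93.2% to 93.5%), and library 1333 has the highest share below 80% (8.25%).

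Most members moved little, and those that moved far were mainly lower. In LSK, the difference of a member (knockout minus control) had a median of -0.655 points, a 1st percentile of -15.4 and a 99th percentile of 5.26. Members lower by 10 points or more numbered 1605 (2.87%), against 36 higher by as much, and those lower by 40 points or more numbered 22, against none higher. In GMP the median was -0.880 points and the 1st and 99th percentiles were -13.6 and 7.69, with 1484 members lower and 201 higher by 10 points or more. Across every library of a comparison, 6904 members (12.4%) had all knockout LSK libraries below all controls, where 15.3% of all tiles did, and 14820 (26.5%) in GMP, where 25.9% did. Both held for 2680 members (4.80%), against 6.46% of all tiles. All knockout libraries lay above all controls in 2000 members (3.58%) in LSK, against 3.33% of all tiles, and in 6122 (10.96%) in GMP, against 11.3%.

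The difference was larger where the control level was lower, and inside or at genes. Members at a control mean of 80 to 85% differed by -3.67 points on average in knockout LSK, those at 85 to 90% by -2.57, at 90 to 95% by -1.14 and at 95 to 100% by -0.763. In GMP the same bins gave -2.51, -1.83, -0.776 and -1.14 points, so the highest bin did not follow the order there. Gene bodies held 30367 members (54.4%) and differed by -1.44 points in LSK, tiles within 1000 bp of a gene's end, start or finish, held 6715 (12.0%) and differed by -1.81, and intergenic tiles held 18764 (33.6%) and differed by -0.851. This order held within each of the 4 control bins for genes against intergenic tiles in LSK: at 80 to 85% the means were -4.42 in gene bodies, -4.61 at gene ends and -2.35 between genes. In GMP it held in the 3 lower bins, while at 95 to 100% intergenic tiles differed by -1.26 points and gene bodies by -1.09. The control level used the same libraries as the differences, so these are descriptions.

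**Figure D2:**
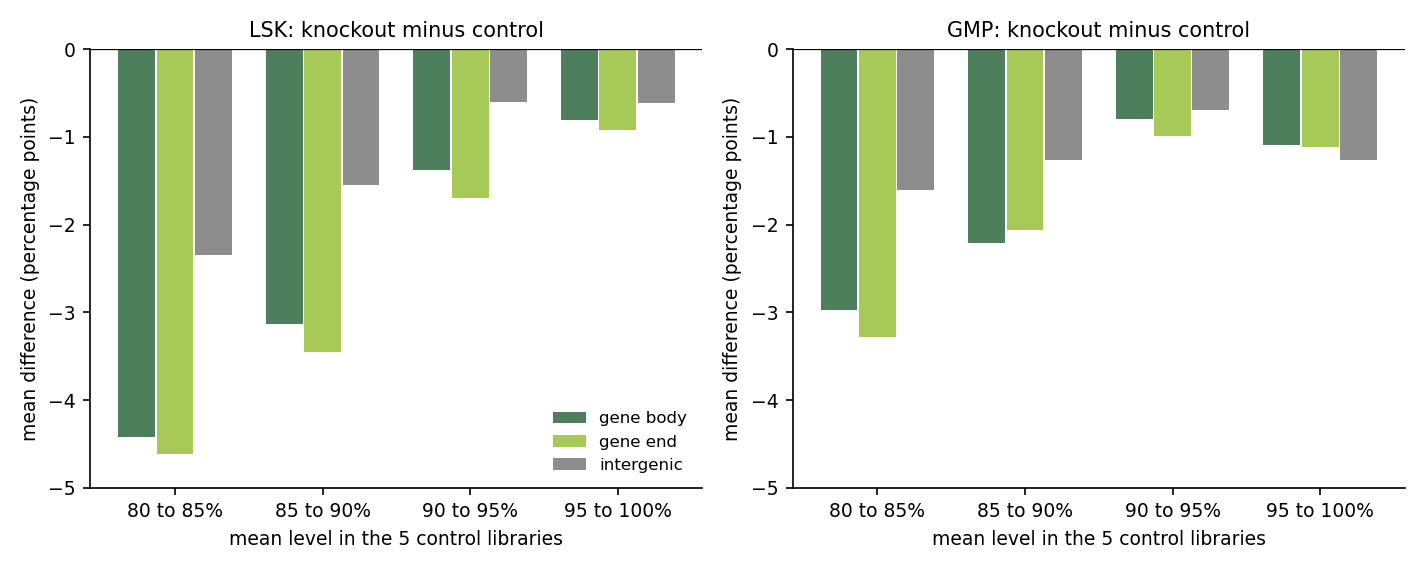
Mean knockout minus control difference of member tiles (percentage points) in LSK (left) and GMP (right), by mean control level (x axis) and by location (colours: gene body, gene end within 1000 bp, intergenic). In LSK the bars run from -4.61 at gene ends at 80 to 85% to -0.606 in intergenic tiles at 90 to 95%.

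Means by number of positions and by coverage varied little. Members with 3 to 4, 5 to 9 and 10 to 19 C positions differed by -1.26, -1.30 and -1.44 points in LSK and by -1.20, -1.13 and -1.08 in GMP. By quartile of summed coverage per tile the LSK means lay between -1.32 and -1.25 points, so deeper tiles did not differ more. Chromosome means varied more, and ran from -1.67 points on chromosome 19 to -0.866 on chromosome 13. At the 28761 CpGs of members measured on both strands, the strands had like levels, 92.9% on each in control LSK and 91.6% and 91.5% in knockout LSK.

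In knockout LSK, 181 members were called lower and 1 higher, where a call required both a Benjamini-Hochberg adjusted p under 0.05 and group means at least 20 points apart. That is 0.324% of members, while 0.994% of all tiles were called lower. The control libraries set both the rule and this contrast, so nothing is read from the count. The called tiles were at 85.001% ± 0.464 (SD, n = 3) in control LSK and at 62.6%, 53.5% and 55.5% in knockouts 1327, 1333 and 1334. Of the 181 tiles, 145 overlapped a gene, 140 different genes in all. Most positions shared in the loss: 1025 of their 1039 positions (98.7%) were lower in knockout LSK, and in 168 of the 181 tiles every position was. In 95 tiles every position was lower by 10 points or more, and in 1 tile a single position was. The tiles were called for a fall in these same libraries, which favours lower positions. Leaving out knockout 1327 raised the count to 339. Tiles picked by the GMP controls alone, so that no LSK library chose them, numbered 55537, of which 243 (0.438%) were called lower in knockout LSK.

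The 8 largest called losses in knockout LSK took tiles from 76.2% to 90.3% in the controls to 19.4% to 43.1% in the knockouts. Pik3c2b, a class II phosphoinositide 3-kinase gene, held the largest (chr1:133084001-133085000, gene body, 5 positions). It was at 81.2%, 90.03% and 89.2% in the LSK controls and 22.1%, 21.9% and 14.2% in knockouts 1327, 1333 and 1334, a difference of -67.4 points (adjusted p = 1.58e-05). In GMP the controls were at 92.6% and 94.01% and the knockouts at 51.7% and 68.2%, a difference of -33.3 points that missed the threshold (adjusted p = 0.0501). No knockout library overlapped a control in either cell type. The 5 positions of the tile did not lose alike: 4 differed by -83.3 to -59.6 points in LSK and the last, at 133084361, by -13.8.

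Runx3, a Runt-family transcription factor gene of T and NK cells, followed (chr4:135156001-135157000, gene body, 5 positions). Its tile was at 81.0%, 82.0% and 82.3% in the LSK controls and 37.1%, 13.0% and 29.0% in the knockouts (-55.4 points, adjusted p = 0.000327). The 3 knockout libraries were spread over 24 points, with 1333 lowest. In GMP it was at 81.7% and 87.5% in the controls and 51.6% and 73.5% in the knockouts (-22.1 points, adjusted p = 0.409). A second Runx3 tile, chr4:135151001-135152000, chosen after its values were seen, went from 85.2% ± 4.63 to 53.9% ± 15.2 in LSK (SD, n = 3 each), and lost its call without control 1326 or 1331 (adjusted p = 0.0612 and 0.0781).

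Zc3h3 encodes a zinc finger protein of mRNA processing (chr15:75818001-75819000, gene body, 5 positions). Its levels were 76.1%, 81.9% and 70.6% in the LSK controls and 37.7%, 12.9% and 23.6% in the knockouts (-51.4 points, adjusted p = 0.00129). The tile nearest to Cdh22, a cadherin gene 19077 bp away (chr2:165254001-165255000, intergenic, 4 positions), was at 83.3%, 81.1% and 83.6% in the controls and 36.4%, 33.5% and 28.9% in the knockouts (-49.8 points, adjusted p = 1.89e-05). Both tiles had every knockout LSK library far below every control. The intergenic tile 3735 bp from Prxl2a, a peroxiredoxin-like gene (chr14:40989001-40990000, 3 positions), went from 82.4% to 91.2% in the controls to 29.8% to 43.2% in the knockouts (-49.5 points, adjusted p = 0.000335). It had the fewest positions of this group, with a summed coverage of 55 to 216 per library.

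Pitpnm2 belongs to the phosphatidylinositol transfer protein family (chr5:124219001-124220000, gene body, 9 positions). In LSK it was at 83.6%, 84.2% and 78.3% in the controls and 34.1%, 27.5% and 38.1% in the knockouts (-48.8 points, adjusted p = 1.07e-05). In GMP it was at 89.6% and 93.9% against 54.7% and 57.2% (-35.7 points, adjusted p = 0.0235), so it was called in both cell types. H2-DMa encodes a chaperone that loads peptides onto MHC class II (chr17:34139001-34140000, gene end, 18 positions). Its LSK levels were 90.9%, 91.4% and 88.5% in the controls and 57.0%, 30.7% and 41.4% in the knockouts (-47.2 points, adjusted p = 0.000136). With a summed coverage of 946 to 3173 per library it was the most deeply covered of these tiles, and all 18 positions were lower, with differences from -61.1 to -23.5 points. Ephb2, an ephrin receptor kinase gene (chr4:136830001-136831000, gene body, 6 positions), was at 79.7%, 79.6% and 83.1% in the controls and 40.7%, 30.8% and 29.3% in the knockouts (-47.2 points, adjusted p = 3.46e-05). All 8 of these tiles kept their LSK call in each alternative run on them.

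Beside these, the tile over Fxyd1, the gene of a regulator of the sodium pump, was the other promoter-overlapping tile with a large loss (chr7:31054001-31055000, 7 positions). It went from 90.2% ± 2.87 to 64.0% ± 8.02 in LSK (SD, n = 3 each, -26.2 points, adjusted p = 0.00353). None of its measured positions lay within the promoter window itself.

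**Figure D3:**
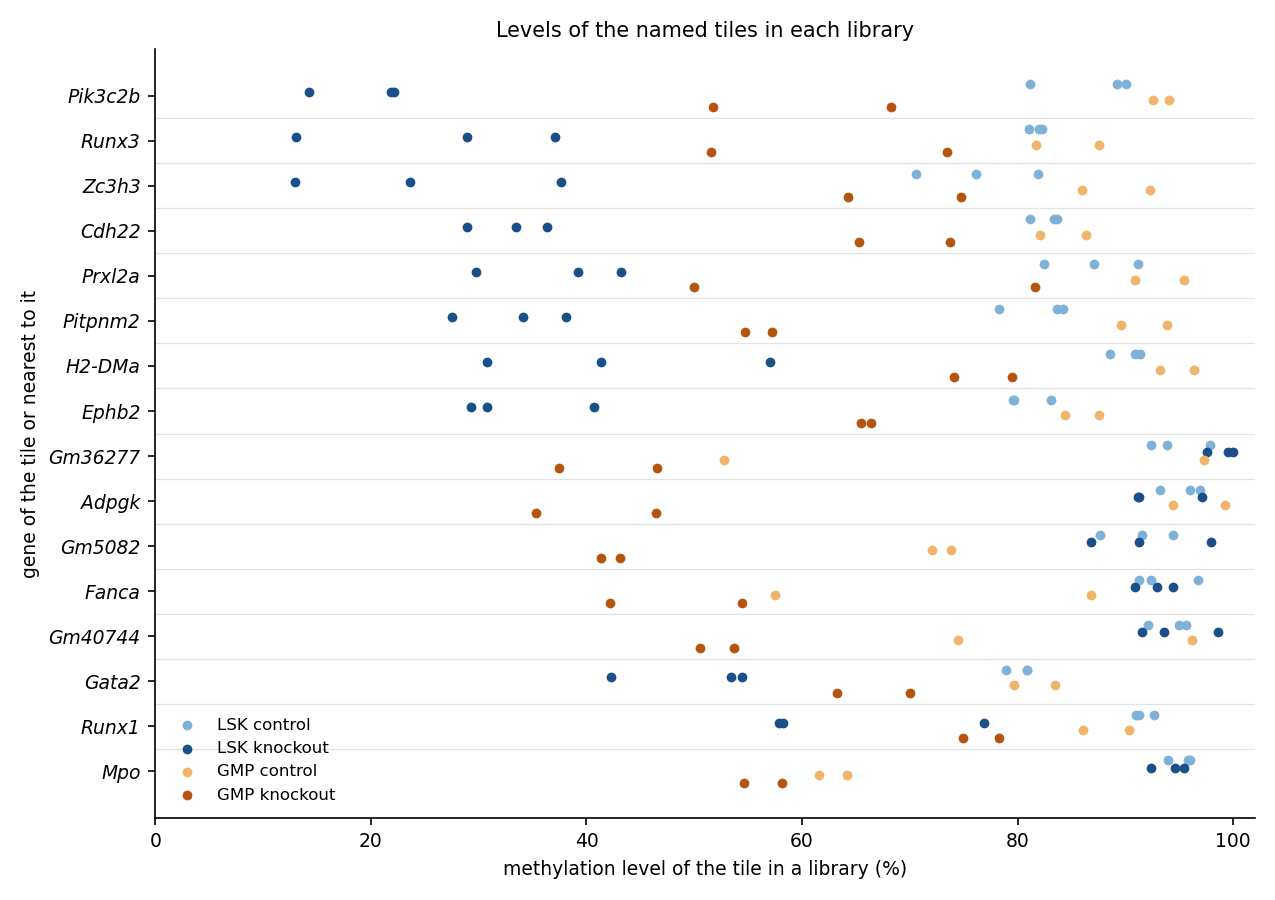
Methylation level (x axis, percent) of named tiles in each of the 10 libraries, 1 row per tile, with 1 point per library coloured by group. In the upper rows, Pik3c2b to Ephb2, the LSK knockouts are lowest (Pik3c2b 14.2% to 22.1%), and from Gm36277 to Gm40744 and in Mpo the GMP knockouts are lowest while the LSK libraries are at 86.9% or more.

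Tiles called lower in knockout LSK were mostly lower in knockout GMP as well. Over the 181 tiles the GMP controls were at 87.2% and 87.6% and the knockouts at 69.1% and 75.1%. The median GMP difference was -14.4 points, and 178 of 181 were lower. In 167 (92.3%) both knockouts were below both controls, against 26.5% of all members and 25.9% of all tiles. The LSK difference that picked these tiles came from LSK libraries, and the GMP libraries read here are others. The spread of each tile was estimated from all 10 libraries, and GMP controls also set the rule. Both bear on which tiles were called, so these GMP values are a description. Of the 85 measured tiles directly beside called tiles, 10 (11.8%) were called lower in knockout LSK. Their median LSK difference was -4.39 points. For neighbours of all members the values were 1.28% and -0.814 points, and 0.994% of all tiles were called lower. The control level of the neighbours of called tiles had a median of 73.8%, against 93.5% for neighbours of all members. Of the sparse tiles at a control mean of 20 to 80%, 5.79% were called lower, with a median of -4.23 points. Of the 85 neighbours, 37 were members, so called tiles side by side may count for each other. Nothing is read from the share of 11.8%.

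**Figure D4:**
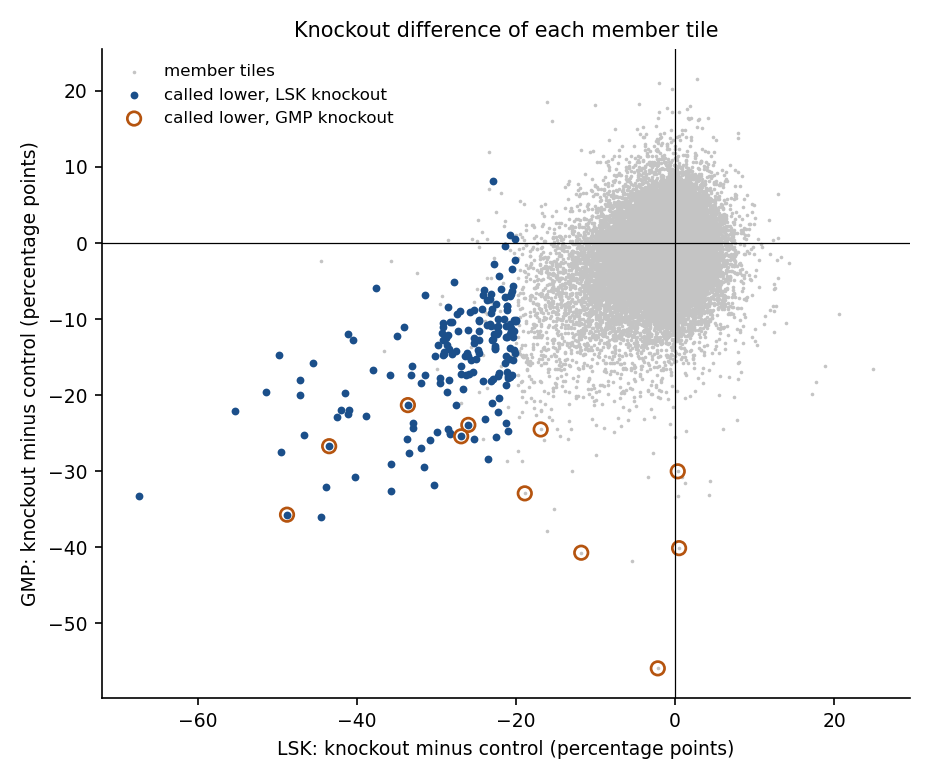
Knockout minus control difference in LSK (x axis) and in GMP (y axis), both in percentage points, for each of the 55846 member tiles (grey), with the 181 called lower in knockout LSK (blue) and the 11 called lower in knockout GMP (open circles). The blue points lie mostly below 0 on the y axis (178 of 181), and 5 tiles carry both marks.

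In knockout GMP, 11 members were called lower (0.0197%, against 0.0869% of all tiles) and none higher (0.00999% of all tiles). The test of the 4 groups found 4143 members at an unadjusted p under 0.05 in this contrast, and limma on logit levels called 4 lower and none higher. The GMP controls set both the rule and this contrast, and nothing is read from the count. Of the 11, 5 were also called in knockout LSK, 45.5% of the GMP calls and 2.76% of the LSK calls. The count dropped to 0 when control 346, control 349 or knockout 178 was left out, rose to 22 without LSK knockout 1327 and to 29 without 1333, and was 0 when the GMP libraries were fitted alone. Tiles chosen by the LSK controls alone numbered 56127, of which 10 (0.0178%) were called lower in knockout GMP.

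Adpgk, the gene of an ADP-dependent glucokinase, had the largest GMP loss (chr9:59315001-59316000, gene end, 4 positions), from 99.2% and 94.4% in the controls to 35.4% and 46.4% in the knockouts (-55.9 points, adjusted p = 0.0103). In LSK it was at 93.2% to 96.9% in the controls and 91.2% to 97.1% in the knockouts, which overlapped. Map2k5, a kinase gene of the ERK5 pathway (chr9:63251001-63252000, gene body, 3 positions), had the same shape, with 91.9% and 97.9% against 54.8% and 54.7% in GMP (-40.1 points, adjusted p = 0.00909) and 93.9% to 97.5% in every LSK library. The GMP loss in Map2k5 lay in 1 of its 3 positions, which was at 93.1% in the controls and 0% in the knockouts, while the other positions differed by -0.50 and 1.45 points. In Adpgk 2 of 4 positions were at 94.5% and 100% in the controls and at 1.04% and 0% in the knockouts. Both tiles lie in windows of 5 Mb in which control and knockout GMP libraries listed different C positions. Such windows held 6.33% of members and 3 of the 11 called tiles, and in 2 of the 11 a single position was lower by 10 points or more. The part of sequence differences between the libraries in these losses was not tested.

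Plxna1, a semaphorin receptor gene (chr6:89355001-89356000, gene body, 3 positions), was at 83.2% and 82.7% in control GMP and 43.7% and 40.9% in knockout GMP (-40.7 points, adjusted p = 0.00865). In LSK it differed by -11.8 points (adjusted p = 0.114). Sulf2 encodes a sulfatase that trims heparan sulfate (chr2:166139001-166140000, gene body, 5 positions). It was at 93.9% and 93.3% against 60.4% and 61.1% in GMP (-32.9 points, adjusted p = 0.0166) and at 82.1% ± 5.42 against 63.2% ± 1.71 in LSK (-18.9 points, SD, n = 3 each). Each of these 4 GMP calls, and that of Pitpnm2, was lost without control 346, control 349 or knockout 178.

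Knockout GMP against knockout LSK is the contrast in which no library had set the rule's levels, although all 10 set which positions were covered. Members called lower in knockout GMP numbered 129 (0.231%, against 0.669% of all tiles), and 32 were called higher (0.0573%, against 0.229% of all tiles). Both shares were below those of all tiles. Differences of 10 points or more were about as common in each direction, with 868 members lower and 891 higher. Both knockout GMP libraries lay below all knockout LSK libraries in 7254 members (13.0%, against 15.9% of all tiles) and above them in 5748 (10.3%, against 12.1%). Without knockout GMP 179 the called counts were 66 lower and 5 higher, and without LSK knockout 1327 they were 116 and 89. Leaving out any of the other 8 libraries gave 94 to 136 lower and 16 to 29 higher.

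The 129 lower tiles differed already between the control cell types. They were at 92.6% in control LSK and 91.6% in knockout LSK, at 74.0% and 75.4% in GMP controls 346 and 349, and at 64.6% and 62.8% in GMP knockouts 178 and 179. Control GMP was below control LSK in 124 of the 129, with a median difference of -18.6 points, and in 115 (89.1%) both GMP controls were below all LSK controls, against 13.7% of members and 18.3% of all tiles. Of the 129 tiles, 72.9% were below 80% in GMP control 346 and 69.8% in 349. A tile below 80% in both passed the rule only through its LSK controls. That favours a gap between the control cell types, so nothing is read from its share. The median difference of knockout from control GMP was -10.3 points, with 116 of the 129 tiles lower and 75 (58.1%) without overlap, against 26.5% of members and 25.9% of all tiles. The same knockout GMP libraries picked these tiles for being low, which favours such a difference, so nothing is read from it. In LSK the knockout minus control difference of these tiles had a median of -1.0002 points.

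The 32 higher tiles showed another pattern. They were at 82.3% in control LSK, 53.3%, 43.0% and 47.9% in LSK knockouts 1327, 1333 and 1334, 88.6% in control GMP, and 73.8% and 77.9% in GMP knockouts 178 and 179. Of the 32, 27 were among the 181 called lower in knockout LSK, with a median LSK difference of -32.8 points over the 32. The same knockout LSK libraries picked these tiles for being low, and the rule held the controls high. Both favour a fall in knockout LSK, so nothing is read from it. Both GMP knockouts were below both GMP controls in 24 of them (75%), against 26.5% of members and 25.9% of all tiles. The rule held the GMP controls high, and the GMP knockouts took part in picking these tiles. Nothing is read from this share either. Knockout GMP 178 and 179 keep reads from the Dnmt3a segment, as given above, and the part of that in these values was not tested.

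**Figure D5:**
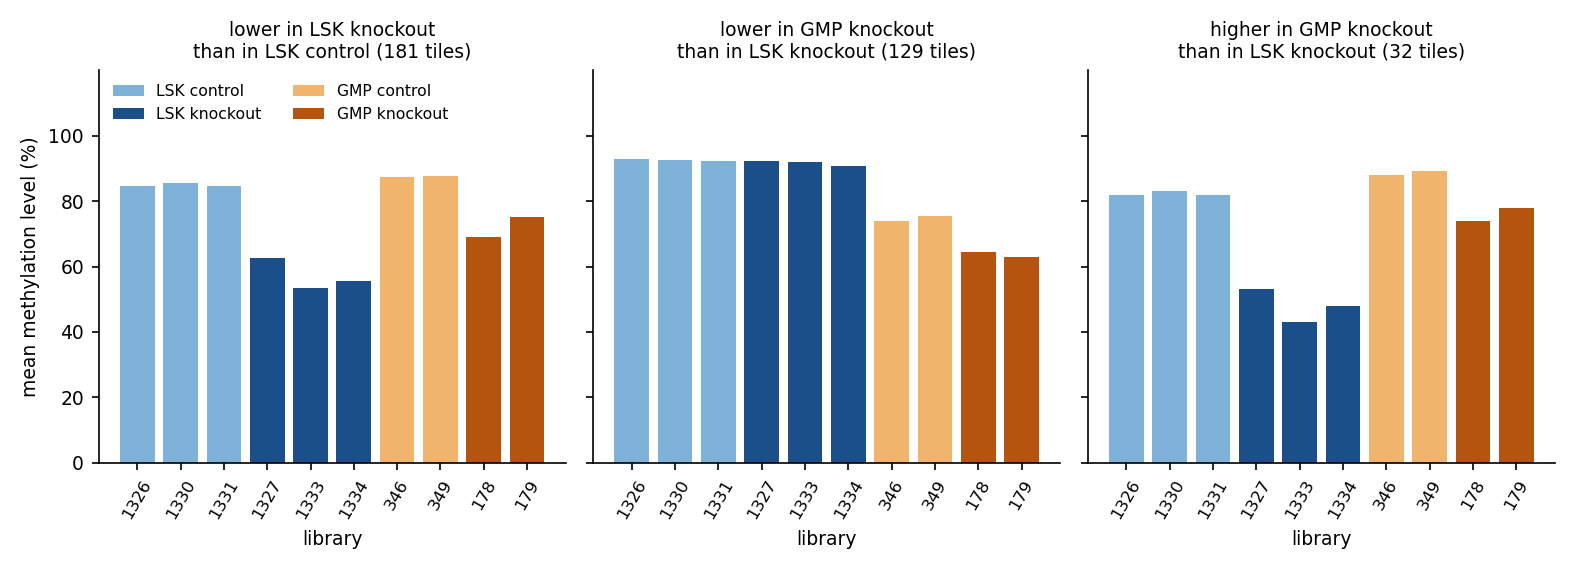
Mean methylation level (y axis, percent, from 0) in each library of the 181 tiles called lower in knockout LSK, the 129 called lower and the 32 called higher in knockout GMP than in knockout LSK. In the middle panel both GMP groups are low (62.8% to 75.4%) and both LSK groups high; in the right panel the LSK knockouts are low (43.0% to 53.3%).

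The largest called differences between the knockout cell types with GMP lower began with an intergenic tile 8257 bp from the long non-coding RNA gene Gm36277 (chr17:13153001-13154000, 5 positions). It was at 99.5%, 100% and 97.6% in knockout LSK and 37.4% and 46.5% in knockout GMP (-57.1 points, adjusted p = 0.00242). The GMP controls differed from each other there, at 97.3% in 346 and 52.8% in 349. Adpgk, described above, was the next (-52.3 points, adjusted p = 0.000207). A tile 9254 bp from Gm5082, another non-coding gene (chr13:41663001-41664000, 3 positions), was at 86.9% to 97.9% in knockout LSK and 43.2% and 41.3% in knockout GMP (-49.8 points, adjusted p = 0.000698), with the GMP controls between, at 73.9% and 72.0%.

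Fanca, a gene of the Fanconi anaemia DNA repair complex (chr8:123282001-123283000, gene body, 4 positions), was at 90.9% to 94.4% in knockout LSK and 54.4% and 42.2% in knockout GMP (-44.5 points, adjusted p = 0.000935). Its GMP controls were at 86.8% and 57.5%. A tile 21757 bp from Gm40744 (chr10:94987001-94988000, 3 positions) was at 91.5% to 98.6% in knockout LSK and 50.5% and 53.7% in knockout GMP (-42.5 points, adjusted p = 0.00198), with GMP controls at 74.5% and 96.2%. In these 5 tiles the GMP knockouts were low in both libraries. The GMP controls lay far apart at Gm36277, Fanca and Gm40744 and close together at Adpgk and Gm5082. The 5 calls held in every alternative run on them.

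Over all members the largest difference in the other direction was 45.4 points, at a tile that was not called. The 5 largest called ones began with Zc3h3 (44.8 points, adjusted p = 0.00420) and Pik3c2b (40.5 points, adjusted p = 0.00113). Cdh22 (36.6 points, adjusted p = 0.00131), Runx3 (36.2 points, adjusted p = 0.0445) and Atxn7l1 (34.4 points, adjusted p = 0.0143) followed. The first 4 were also among the largest LSK losses above. Atxn7l1, a relative of the ataxin 7 gene (chr12:33214001-33215000, gene body, 3 positions), was at 53.8%, 38.9% and 44.8% in knockout LSK and 74.8% and 85.7% in knockout GMP, and lies in a window where the GMP genotypes listed different positions. All 5 calls were lost without knockout GMP 179, with adjusted p between 0.0603 and 0.510, and Runx3 lost its call in 10 of 17 alternatives.

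Higher levels in the knockouts were rare, in a set whose high control levels left little room for them. The only member called higher in knockout LSK lay 14885 bp from LOC115487525, a snoRNA gene (chr10:11493001-11494000, 4 positions), at 73.3%, 68.5% and 70.0% in the controls and 91.8%, 98.3% and 96.4% in the knockouts (24.9 points, adjusted p = 0.00662). Of all tiles, 0.00399% were called higher in this contrast. It lies in 1 of the 3 windows of 5 Mb where LSK genotypes listed different C positions, and its GMP controls were at 95.5% and 94.9%. The rise lay in 1 of its 4 positions, which went from 58.6% to 96.8%, while the other strand of the same CpG was at 95.8% and 98.3%. The next were Ildr1, a tight junction receptor gene (20.6 points, adjusted p = 0.0723), and Nphp4, a cilium gene (18.8 points, adjusted p = 0.00620), neither of which met both parts of the call. In GMP the largest were at Gm35244 (21.6 points, adjusted p = 0.399), the actin-binding gene Palld (21.1 points, adjusted p = 0.382) and the annexin gene Anxa2 (20.2 points, adjusted p = 0.726), none of them called. The test of the difference between the knockout effects in GMP and LSK called 2 members lower (0.002% of all tiles were) and none higher (0.000999% of all tiles were), and limma called none. An unadjusted p under 0.05 was found for 2911 members in this test.

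The gene lists describe which blood genes the members touch. Stem cell self-renewal genes held 150 member tiles in 20 of 30 genes, of which 5 were called lower in knockout LSK and none higher, with a median difference of -1.83 points against -0.655 over all members and -0.368 over all tiles. The called tiles lay in Gata2, Hlf, Prdm16 and Runx1. In knockout LSK, 0.324% of members and 0.994% of all tiles were called lower. At such shares lists of this size hold few calls or none, so nothing is read from a list without calls. Of the 55846 members, 6177 had an unadjusted p under 0.05 in LSK and 4143 in GMP. None of the tiles of any list was among the 11 called in knockout GMP, and limma called none of them there either, while 24 self-renewal tiles had an unadjusted p under 0.05. Gata2 is a zinc finger transcription factor gene of stem and progenitor cells (chr6:88204001-88205000, gene body, 18 positions). Its tile was at 78.9%, 80.9% and 80.9% in the LSK controls and 54.4%, 53.4% and 42.3% in the knockouts (-30.2 points, adjusted p = 0.000102), with all 18 positions lower (-53.7 to -12.7 points).

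Runx1, a Runt-family factor needed to form blood stem cells and often mutated in leukaemia (chr16:92695001-92696000, gene body, 15 positions), was at 90.99%, 92.6% and 91.2% in the LSK controls and 76.9%, 57.8% and 58.2% in the knockouts (-27.3 points, adjusted p = 0.000840). Knockout 1327 was again the highest of the 3. The remaining tiles of this list were chosen after their values were seen. Hlf, a PAR bZIP factor gene of stem cells (chr11:90358001-90359000), went from 81.5% ± 6.53 to 52.0% ± 14.1 (SD, n = 3 each), and lost its call without control 1330, control 1331 or knockout 1334. The larger of 2 Prdm16 tiles (chr4:154540001-154541000) went from 84.9% ± 1.81 to 57.4% ± 5.94 (-27.5 points, adjusted p = 0.00162). Both Prdm16 tiles lie in a window where the genotypes listed different positions, in both cell types.

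Among lineage lists, myeloid differentiation genes held 22 member tiles, of which none was called in knockout LSK by the main test or by limma and 2 had an unadjusted p under 0.05, and their median LSK difference was -0.0798 points. A tile of theirs in Mpo, the myeloperoxidase gene of neutrophil granules, was called lower in knockout GMP than in knockout LSK (chr11:87801001-87802000, gene body, 7 positions, chosen after its values were seen). It was at 95.8%, 96.0% and 93.9% in control LSK, 95.4%, 92.3% and 94.6% in knockout LSK, 64.2% and 61.5% in control GMP and 58.1% and 54.6% in knockout GMP. All 4 GMP libraries lay below all 6 LSK libraries, and the knockouts of the cell types differed by -37.7 points (adjusted p = 3.64e-05). Both GMP controls were under the minimum level of the rule, so the tile was a member only through its LSK controls. That favours a gap between the control cell types, so nothing is read from the gap between the controls. The knockout differences were -1.16 points in LSK and -6.50 in GMP (adjusted p = 0.620 and 0.794). All 7 positions were lower in knockout GMP than in knockout LSK, with differences from -75.3 to -9.3 points.

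Erythroid and megakaryocyte genes held 57 member tiles, with 1 called lower in knockout LSK, in the red cell ankyrin gene Ank1 (88.5% ± 3.42 to 67.1% ± 5.58, SD, n = 3 each). Without knockout 1333 it differed by -19.0 points, short of 20. B cell genes held 61 tiles, with none called in LSK by either test and 4 at an unadjusted p under 0.05, and T and NK cell genes 62, with the 2 Runx3 tiles called. Stroma and endothelium genes held 56 tiles, of which those in Eng, a TGF-beta co-receptor (86.8% ± 2.50 to 66.8% ± 5.83), and Pdgfrb, a growth factor receptor (83.8% ± 1.33 to 54.5% ± 8.60), were called. Eng just met the 20 points and lost its call without control 1330, knockout 1333 or knockout 1334. The Pdgfrb call was lost with limma (adjusted p = 0.0501).

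Cytokine, RAS and JAK-STAT genes held 58 tiles, with 1 called, in Socs2, a suppressor of cytokine signalling (chr10:95411001-95412000, 92.6%, 94.1% and 92.5% in the LSK controls and 63.7%, 59.0% and 68.9% in the knockouts). The Socs2 call was lost with limma (adjusted p = 0.0537), which called no tile of this list. Adhesion and homing genes held 29 tiles, DNA methylation machinery 52 and housekeeping genes 12, with none called in LSK by either test and 7, 9 and 1 at an unadjusted p under 0.05, and leukaemia genes 100, with the Runx1 tile called. The median LSK differences were -1.43 points for cytokine, -1.88 for adhesion, -0.772 for methylation, -0.170 for housekeeping and -1.46 for leukaemia genes. For the lists as a whole, called tiles were few, and the medians lay between -1.88 and -0.0798 points.

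Among sparse tiles at intermediate levels a larger share was called lower. The 13156 autosomal tiles with the same number of positions but a control mean of 20 to 80% had 762 called lower in knockout LSK (5.79%), 69 in knockout GMP (0.524%), and mean differences of -5.85 and -3.43 points. The 461 CpG-dense autosomal tiles at 80% or more, with 20 or more positions, had 14 called lower in knockout LSK (3.04%) and mean differences of -2.39 and -1.39 points. The difference between these sets was not tested, since control levels chose them. At the edge of the rule, the members just inside lay near Parvg (80.0025%) and in Tacc2 (80.0052%), and the tiles just outside at Gm19439 (79.9998%) and near Gm24638 (79.9993%).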

How the data were processed

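DNA methylation was measured by enhanced reduced representation bisulfite sequencing of MspI fragments of 150 to 400 bp, read as single 50-base reads, per the labels' protocols. Per the submitters' processing notes, Bismark and the mm10 (GRCm38) build were used, with no version given in the sources used here. In the deposited files each C position has a coverage (the read count there) and its C and T shares in percent. Percent times coverage gave whole reads at every position, within a rounding of 0.0005 percentage points, so methylated reads were recovered from the deposited percent values. Per the file headers, strands are listed apart.

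Positions covered by 10 or more reads in all 10 assigned libraries were summed over tiles of 1000 bp. A quasi-binomial logistic model of the 4 groups was fitted to the reads of all 100150 tiles in R 4.3.3, with 6 residual degrees of freedom and dispersions moderated by limma 3.58.1 (prior degrees of freedom 6.55, floor 1). F-test p-values were adjusted by the Benjamini-Hochberg method over all tiles, and a call needed an adjusted p under 0.05 and 20 points. On simulated data of 100150 tiles, 26 of 50 tiles lowered by 20 points in LSK met both parts of the call. Of those lowered by 30 points 50 of 50 did, and in GMP the counts were 13 and 41. A true change of 20 points can miss the size cut by sampling alone. At an adjusted p under 0.05 without that cut, 43 of 50 were recovered in LSK and 22 of 50 in GMP at 20 points.

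Median coverage per position was 85 to 103 reads in LSK and 50 to 59 in GMP. Tiles were annotated with RefSeq gene spans, in which exons and introns cannot be told apart here, and were named by the gene they overlap or the nearest one. Named tiles were the 8 largest called losses in knockout LSK, the 5 largest in knockout GMP, the 5 largest called differences each way between the knockout cell types (all without overlap of libraries), the 3 largest rises per cell type, the largest called loss of each gene list, those at the threshold, and the 3 largest losses over promoter windows. The members and lists were chosen with earlier results of these data known. Alternatives were another prior, each comparison's groups fitted alone, limma on logit levels, other coverage, size, level and position minimums, shifted tiles, and leaving out each library. Library 352, whose title and genotype field conflict, entered no comparison.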

Additional observations from a re-analysis of the deposited data

Results flagged for a closer look

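In a pair of tiles the knockout effect differed between the cell types by the test of the difference itself (GMP effect minus LSK effect), which 0.002% of all tiles passed in this direction. Plekhg5 (chr4:152102001-152103000, gene body, 5 positions) had an interaction of -23.7 points (adjusted p = 0.0474). Its level was 85.9%, 85.8% and 88.3% in control LSK, 96.1%, 97.7% and 97.0% in knockout LSK, 96.7% and 95.9% in control GMP and 79.2% and 86.6% in knockout GMP. Nphp4, described among the higher tiles (chr4:152500001-152501000, gene body, 4 positions), had an interaction of -35.0 points (adjusted p = 0.0474), with 74.4%, 77.8% and 82.4% in control LSK, 94.97%, 100% and 95.9% in knockout LSK, 97.3% and 96.4% in control GMP and 78.0% and 83.2% in knockout GMP. Knockout libraries were higher in LSK and lower in GMP at both, without overlap.

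In each tile 1 position carried the difference. In Plekhg5 it was at 47.0% in control LSK, 96.2% in knockout LSK, 98.7% in control GMP and 22.4% in knockout GMP, and in Nphp4 at 38.4%, 96.01%, 97.4% and 26.03%. The other positions of Plekhg5 differed by -0.52 to 1.23 points in LSK. Both tiles lie in windows of 5 Mb where the genotypes listed different C positions, in both cell types, and the part of that in these values was not tested. Both calls were lost in 11 of 16 alternatives.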

How the results depend on the processing

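No paired analysis was possible because no library number is shared between groups. With a call at 10 points the counts were 720 lower in knockout LSK, 18 lower in knockout GMP, and 271 lower and 68 higher in knockout GMP than in knockout LSK, and 760 and 17 in the sets chosen by the other cell type's controls. Members with at least 5 positions gave 95, 6, 50 and 21, and 1 interaction call. Members at 90% or more gave 34, 3, 23 and 2, and 1 interaction call, and members chosen by the mean of all 10 libraries gave 34 in LSK, 3 in GMP and 3 higher in knockout GMP than in knockout LSK. Fitting only the groups compared gave 0 in GMP, 47 lower and 5 higher between the knockouts, and 0 in the GMP set chosen by LSK controls. With limma these were 4, 83, 18 and 3. A coverage minimum of 20 gave 18 in GMP. Interaction calls were 0 with the prior fitted on tiles at 5 to 95%, with limma, with shifted tiles and without windows of differing positions. Leaving out single libraries gave 141 to 339 lower in LSK, 0 to 29 in GMP, 66 to 136 lower and 5 to 89 higher between the knockouts, 0 to 3 interactions, and 186 to 412 and 0 to 26 in the cross-chosen sets. The highest LSK counts, 339 and 412, came without knockout 1327. The mean GMP difference was -0.974 points in members at 90% or more and -0.969 in those chosen by all 10 libraries. The mean difference between the knockouts ranged from -0.186 to 0.256 points, with its sign reversed without 1327 (0.256). Weighting by reads gave mean levels of 93.3% in control LSK, 93.1% in control GMP and 92.0% in knockout GMP. The causes were not tested. Of the values for named tiles under alternatives, 687 kept direction and side of the threshold, 91 lost the call and 4 gained it. Simulated GMP falls of 20 points met both parts of the call in 13 of 50 tiles, and the adjusted p alone in 22 of 50. In LSK the counts were 26 and 43. The GMP groups held 2 libraries each and fewer reads, which limits what these libraries can show.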

Other observations

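Of the 22 member tiles of the myeloid differentiation list, 1 (Mpo) was called lower in knockout GMP than in knockout LSK. So were 0.231% of members and 0.669% of all tiles. The list's median in this contrast was -0.790 points. Single tiles of Prss57 and Mmp8, which are outside that list, were chosen after their values were seen, with no tally of like genes, and describe no group. Prss57, a neutrophil serine protease gene (chr10:79787001-79788000, gene body, 7 positions), was at 87.2%, 87.4% and 93.4% in control LSK, 88.3%, 75.8% and 80.8% in knockout LSK, 71.5% and 64.2% in control GMP and 61.5% and 53.1% in knockout GMP. The knockouts of the cell types differed by -24.4 points (adjusted p = 0.0190), and all 7 positions were lower in GMP. As at Mpo, both GMP controls of Prss57 were under the minimum level of the rule, so its LSK controls alone made it a member. That favours a gap between the control cell types, so nothing is read from the gap between the controls. Mmp8, the neutrophil collagenase gene (chr9:7560001-7561000, gene body, 3 positions), was at 95.1%, 94.5% and 94.6% in control LSK, 90.5%, 79.3% and 90.2% in knockout LSK, 83.9% and 78.1% in control GMP and 61.1% and 67.2% in knockout GMP (-22.5 points, adjusted p = 0.0235). At both tiles every GMP library lay below every LSK library of the same genotype. Both calls were lost without knockout GMP 178 or 179, and that of Mmp8 also without LSK knockout 1327 or 1334.

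GMP library 352, which the labels put in no group, listed every position of 54228 members, and its mean level over these was 91.4%, with 7.73% of tiles below 80% and 170 below 50%. Its mean was 53.1% over 175 of the tiles called lower in knockout LSK, 68.5% over 128 of those called lower in knockout GMP than in knockout LSK, and 52.4% over 29 of those called higher. Single tiles were at 30.4% in Pik3c2b, 26.5% in Runx3, 33.4% in Gata2 and 57.2% in Mpo.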
